A study of Mus musculus with 63 samples.

Results

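MHC class II molecules present peptides from endosomes to CD4+ T cells. Their alpha and beta chains assemble in the endoplasmic reticulum around the invariant chain, which blocks the peptide groove until proteases digest it in an endosomal compartment, where the DM heterodimer exchanges the remaining fragment for peptide. The genes are switched on together by the coactivator CIITA, which is itself induced by interferon gamma. Professional antigen-presenting cells express them constitutively, and enterocytes of the small intestine express them in vivo.

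The MHC class II genes examined here were 7 of the 54752 genes in the count tables, selected by gene name: the chains H2-Aa, H2-Ab1 and H2-Eb1, the DM chains H2-DMa and H2-DMb1, the invariant chain Cd74 and the coactivator Ciita. All 7 were found. RNA was sequenced from mouse small intestinal epithelial cells (IECs) and from small intestinal organoids, epithelial cultures grown in Matrigel, to ask what loss of the Mediator kinases CDK8 and CDK19 does to the epithelium. The tables held 57 libraries with labels, 19 groups of 3, of which 6 libraries came from IECs and 51 from organoids, and their totals ran from 15485959 to 32909565 counts with a median of 19374952.

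All mice and lines were labelled C57BL/6. The VilCre genotype carried VillinCreERT2, a Cre that is driven by the villin promoter in intestinal epithelium and becomes active with tamoxifen. DKO stood for VillinCreERT2; Cdk8 fl/fl; Cdk19 ko/ko, in which only Cdk8 is deleted on induction because Cdk19 is missing from the start in every cell of the animal. Cdk8KO was VillinCreERT2; Cdk8 fl/fl. Cdk19KO was Cdk8 fl/fl; Cdk19 ko/ko and carried no Cre. D173A organoids were VillinCreERT2; Cdk8 fl/fl; Cdk19 ko/D173A, with 1 Cdk19 allele for a kinase-dead protein. Mice of both IEC genotypes were injected with 80 mg/kg tamoxifen on 5 days, and their IECs were taken 14 days after the last dose. Organoids were exposed for 24 h to 100 nM 4-hydroxytamoxifen (4-OHT) or to 0.001% ethanol (EtOH). VilCre, C57BL/6, Cdk8KO, Cdk19KO and DKO organoids were harvested on day 7 after 4-OHT, a second DKO line after either agent on days 3, 5, 7 and 10, the same line in Wnt3-conditioned medium (Wnt3-CM) after either agent on day 10, and D173A organoids after either agent on day 7. Each organoid group came from 1 line, so in comparisons between genotypes the genotype and the line cannot be told apart, and p-values measure the spread between samples of those lines. The D173A columns bear a line number that no label gives, and were assigned because they were the only EtOH and 4-OHT columns left for the only organoid genotype without another table. The ages of the mice were not given in the sources used here.

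Levels are given as CPM, the counts of a gene relative to the size of its library, with library sizes scaled by the trimmed mean of M values (TMM) over all 57 libraries. A gene was called when edgeR's quasi-likelihood test gave a Benjamini-Hochberg adjusted p under 0.05, over all genes tested in that comparison, with a fold change over 1.5. The whole-gene level of Cdk8 was 61.2 ± 5.08 CPM in VilCre IECs and 63.8 ± 3.51 CPM in DKO IECs (SD, n = 3), and that of Cdk19 was 24.3 ± 2.07 and 20.9 ± 2.33 CPM. Counts over a whole gene do not read the deleted part alone, so these values check nothing about the deletions. Epithelial markers were present in all libraries, with the summed level of 6 of them (Epcam, Vil1, Cdh1, Krt8, Krt20 and Cldn7) at 11494 to 14108 CPM in IECs and 4902 to 9785 CPM in organoids.

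Library 1 of the DKO IECs stood apart from the other IEC libraries within the MHC class II region. The pseudogene-annotated alpha chain H2-Ea-ps had 1933 counts in this library, 7 and 15 counts in the other two DKO libraries and 0 counts in all 3 VilCre libraries. As background, C57BL/6 mice carry the b haplotype, in which the H2-Ea gene is not transcribed. The labels give no H2 haplotype, and what another haplotype would do to the counts of H2-Aa, H2-Ab1, H2-Eb1 and the DM beta genes in this library was not tested. The same library held 522 counts of the second DM beta gene, H2-DMb2, against 28 and 33 in the other DKO libraries and 6 to 29 in VilCre. Of the DO chains, which restrain DM in B cells, it held 150 counts of H2-Ob and 53 of H2-Oa, while the remaining 5 IEC libraries held 4 to 23 and 3 to 16. The differences of the chains, of DM beta and of these companion genes are given below with and without it.

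The chains of the peptide-binding molecules lie side by side on chromosome 17 (GRCm38, GENCODE annotation). H2-Ab1 spans chr17:34257689-34269419 on the plus strand, H2-Aa spans chr17:34282744-34287823 on the minus strand, and H2-Eb1 spans chr17:34305867-34316674 on the plus strand. DM is encoded nearby, with H2-DMa at chr17:34119541-34139101 and H2-DMb1 at chr17:34153072-34160230, both on the plus strand. Ciita, at chr16:10480059-10528418 on the plus strand, and Cd74 lie outside this region.

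Promoters of MHC class II genes share an X box, bound by the RFX complex and by CREB, and a Y box, an inverted CCAAT element bound by NF-Y, and CIITA docks on the assembled proteins. RefSeq promoters (GRCm38.p6) were matched for 4 of the 7 genes, and 120 bases of the alpha and beta chain promoters with the clearest elements are shown, from 140 to 21 bases before the transcription start. The H2-Aa stretch is chr17:34287844-34287963, minus strand, and the H2-Eb1 stretch is chr17:34305727-34305846, plus strand, both written 5′ to 3′ with the searched motifs in capitals.
H2-Aa: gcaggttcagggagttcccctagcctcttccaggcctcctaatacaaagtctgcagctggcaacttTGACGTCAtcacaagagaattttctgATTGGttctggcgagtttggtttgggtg
H2-Eb1: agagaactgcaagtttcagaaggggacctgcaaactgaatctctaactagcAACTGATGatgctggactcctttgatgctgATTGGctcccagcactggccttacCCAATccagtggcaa
The motifs were chosen after these sequences were seen, and both strands were searched. In H2-Eb1 the X box core AACTGATG began 89 bases before the start and was followed after 22 bases by the Y box ATTGG, with a second, reversed Y box, in capitals as CCAAT, at 35 bases before the start. H2-DMb1 had the same pair, AACTGATG at 92 bases before the start and ATTGG after a gap of 23 bases. In H2-Aa the cyclic AMP response element TGACGTCA began 74 bases before the start, 18 bases ahead of ATTGG. None of the 3 motifs was in the H2-DMa window searched, which says only that these letters are not there. H2-DMa has 2 promoter entries, and only the first was searched. Among 32851 promoters of 300 bases, 37.4% held ATTGG, 0.776% held AACTGATG, 1.79% held TGACGTCA, and 0.292% held both AACTGATG and ATTGG.

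In VilCre IECs all 7 genes were expressed, at levels that differed widely between them. Levels were divided by all exonic bases annotated for a gene, whichever transcript was present. Compared in this way, the invariant chain Cd74 was at 1671 ± 417 CPM per kilobase (SD, n = 3), far above its partners. H2-Ab1 followed at 373 ± 95.7, H2-Eb1 at 225 ± 55.8 and H2-Aa at 223 ± 70.9 CPM per kilobase, and the ranges of mean ± SD of these 3 chains overlapped. The DM chains were lower, H2-DMb1 at 70.4 ± 14.9 and H2-DMa at 32.9 ± 7.13 CPM per kilobase. Before division by length H2-DMb1 was at 118 and H2-DMa at 114 CPM, and their exonic lengths are 1681 and 3448 bases. The gap between these 2 genes thus comes from the annotated lengths. Ciita, the coactivator, was lowest at 5.74 ± 1.77 CPM per kilobase. The order in DKO IECs had Cd74 first at 860 ± 151 CPM per kilobase and Ciita last at 2.12 ± 0.243, with H2-Ab1 at 130 ± 25.4, H2-Aa at 103 ± 50.3 and H2-Eb1 at 84.8 ± 32.9, whose ranges again overlapped.

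The comparison of DKO with VilCre IECs addressed loss of both Mediator kinases in vivo. No IECs lacking only Cdk19 were among the libraries used. Induced loss of Cdk8 in the epithelium and absence of Cdk19 in every cell thus cannot be told apart. All 7 MHC class II genes were measured lower in DKO IECs, and 3 of them passed the test: H2-Ab1, H2-DMb1 and Ciita. Among all 15182 genes tested, 0.856% were called lower. The median log2 difference of the 7 genes was -1.38, and that of all genes tested was 0.00. In bulk RNA, fewer cells that express a gene and less RNA per cell cannot be told apart.

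H2-Ab1, the beta chain of the I-A molecule, was at 683, 1029 and 1159 CPM in the 3 VilCre libraries and at 335, 268 and 398 CPM in the 3 DKO libraries. Every DKO library lay below every VilCre library, and the level was 2.87-fold lower (log2 -1.52, SE 0.23, adjusted p = 0.0361 in edgeR's quasi-likelihood test). Its partner, the alpha chain H2-Aa, was at 555, 906 and 1084 CPM in VilCre and at 610, 253 and 312 CPM in DKO. Here the groups overlapped, because DKO library 1 exceeded VilCre library 1, and the difference of -1.11 on the log2 scale did not pass (SE 0.40, adjusted p = 0.207). Without DKO library 1 it was -1.59. H2-Eb1, the beta chain of I-E, was at 314, 487 and 514 CPM in VilCre and at 94.0, 183 and 218 CPM in DKO. The groups did not overlap, yet the log2 difference of -1.41 did not pass either (SE 0.34, adjusted p = 0.115). DKO library 1 was the lowest, and without it the difference was -1.13, while that of H2-Ab1 was -1.53.

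The DM heterodimer edits the peptides that class II molecules carry. H2-DMb1 had 89.6, 131 and 135 CPM in VilCre and 45.7, 40.6 and 50.5 CPM in DKO. This gene had the smallest adjusted p of the 7, with DKO libraries close together and all below VilCre (log2 -1.38, SE 0.17, adjusted p = 0.0242). H2-DMb2 is a close copy of it, and reads may be divided between them. With the counts of both genes added, a choice made after the data were seen, the log2 difference was -1.04 (adjusted p = 0.122 in edgeR's quasi-likelihood test) and the call was lost. This sum is itself 1 of the 15 alternatives for H2-DMb1, over which the adjusted p ran from 3.99e-13 to 0.122. The summed level was 90.0 to 135 CPM in VilCre and 79.6, 42.4 and 52.6 CPM in DKO libraries 1, 2 and 3. Without DKO library 1 the summed difference was -1.33 (adjusted p = 0.0857) and that of H2-DMb1 alone -1.38 (adjusted p = 0.0787). H2-DMa had 85.3, 130 and 125 CPM in VilCre and 73.1, 48.3 and 65.9 CPM in DKO. The DKO libraries were again all lower, but the difference did not pass (log2 -0.86, SE 0.21, adjusted p = 0.104).

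The invariant chain gene Cd74, which accompanies class II molecules to the endosome, had 2027, 3002 and 3385 CPM in VilCre and 1736, 1311 and 1286 CPM in DKO. It had the highest mean per kilobase in both genotypes, and its log2 difference of -0.96 (SE 0.22) did not pass (adjusted p = 0.0959). Ciita had 36.9, 56.9 and 70.4 CPM in VilCre and 20.7, 22.3 and 17.7 CPM in DKO, or 530 to 1047 and 280 to 357 counts. All DKO libraries lay below the lowest VilCre library, and the gene was called lower (log2 -1.43, SE 0.24, adjusted p = 0.0466).

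Groups did not overlap for 6 of the 7 genes, and 15% of all genes tested had all 3 DKO libraries under all 3 VilCre libraries. The call of 3 genes rested on single libraries. Without DKO library 1, DKO library 3 or VilCre library 3 none of the 7 was called. Without VilCre library 1 only H2-DMb1 remained, without DKO library 2 the number was 2, and without VilCre library 2 it was 3. All 7 genes were lower under all 15 alternatives computed, some of which left a gene's counts and fit unchanged. The log2 differences ran from -1.71 to -1.35 for H2-Ab1, -1.54 to -1.04 for H2-DMb1 and -1.65 to -1.20 for Ciita. The range of H2-DMb1 includes its sum with H2-DMb2 at -1.04.

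**Figure D1:**
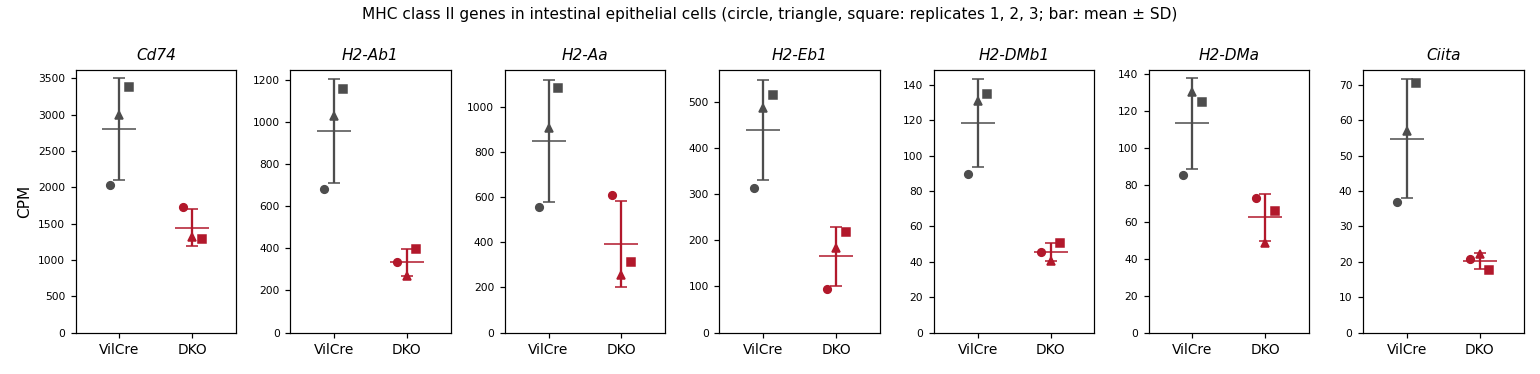
CPM of each MHC class II gene (y axis, linear from 0) in the 3 VilCre and 3 DKO IEC libraries, with replicates 1, 2 and 3 as circle, triangle and square and bars for mean ± SD. DKO libraries lie below VilCre libraries for every gene but H2-Aa, in which DKO library 1 at 610 CPM exceeds VilCre library 1 at 555 CPM.

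The 7 genes kept different proportions in the libraries. H2-Aa per H2-Ab1 was 0.812 to 0.936 in the VilCre libraries as a ratio of CPM, and 1.82, 0.945 and 0.782 in DKO libraries 1, 2 and 3. H2-Aa per H2-Eb1 was 1.77 to 2.11 in VilCre, and in DKO library 1 it was 6.48, with 1.39 and 1.43 in the other two. DKO library 1 thus had relatively high H2-Aa and low H2-Eb1 beside its H2-Ea-ps counts. Cd74 per H2-Ab1 was 2.92 to 2.97 in VilCre and 3.23 to 5.19 in DKO. The share of H2-DMb2 in all DM beta counts was 0.298% to 1.51% in VilCre, 42.6% in DKO library 1 and 3.97% to 4.12% in the other two. The origin of these proportions was not tested.

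Markers of leukocytes, some of which express MHC class II themselves, were present in the IEC libraries, with higher sums in most DKO libraries. The summed level of 5 pan-leukocyte markers was 63.7 to 227 CPM in VilCre and 200.5 to 468 CPM in DKO, and that of 9 macrophage and dendritic cell markers was 11.6 to 122 and 85.2 to 223 CPM. For 7 B and plasma cell markers the sums were 20.5 to 204 CPM in VilCre and 490 to 909 CPM in DKO, most of it the immunoglobulin chain Igkc. VilCre library 2 stood apart here, since it alone gave the upper end of each VilCre range, with 63.7 and 74.6 CPM of pan-leukocyte markers in the other two. The 8 T cell markers summed to 190 to 446 CPM in VilCre and 454 to 936 CPM in DKO. All markers that were tested had positive log2 differences in DKO, 5 of 5 pan-leukocyte, 7 of 7 macrophage and dendritic, 7 of 7 B and plasma cell and 8 of 8 T cell markers, and none was called. DKO library 1, with the highest pan-leukocyte sum, had the highest Cd74, H2-Aa and H2-DMa of the DKO libraries, the lowest H2-Eb1 and the middle values of H2-Ab1, H2-DMb1 and Ciita. The summed level of the 6 epithelial markers was 13481 to 14108 CPM in VilCre and 11494 to 13201 CPM in DKO, lower in all 3 DKO libraries. The single markers were split, with 4 negative and 2 positive log2 differences in DKO and none called. The part of leukocyte RNA and of epithelial content in the levels of the 7 genes was not tested.

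**Figure D2:**
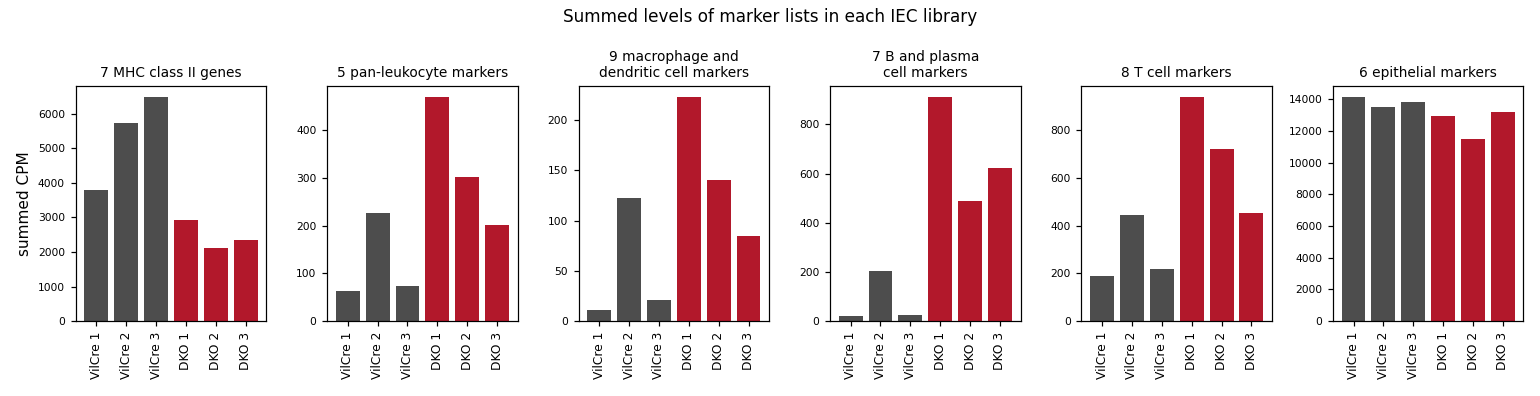
Summed CPM (y axes, each from 0) of the 7 MHC class II genes and of marker lists in each VilCre and DKO IEC library. The MHC class II sum is 3791 to 6472 CPM in VilCre and 2126 to 2914 CPM in DKO, while the leukocyte sums are highest in DKO library 1.

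Genes of the surrounding pathway, and the 6 epithelial markers, showed no call in this comparison. Of the regulators that bind the promoter (Rfx5, Rfxap, Rfxank, Nfya, Nfyb, Nfyc and Creb1), 0 of 7 were called, with a median log2 difference of -0.05. Of the genes of the interferon gamma input, such as Ifng, Ifngr1, Ifngr2, Irf1 and Socs1, 7 were tested and 0 called, with 4 positive and 3 negative differences and a median log2 of 0.03. Irf1, the interferon-induced factor that drives Ciita in epithelial cells, was at 226 ± 6.24 CPM in VilCre and 159 ± 7.99 CPM in DKO (SD, n = 3), with no overlap between groups, and missed both the adjusted p and the fold cutoff (log2 -0.51, SE 0.09, adjusted p = 0.0521). The receptor chain Ifngr1 was at 160 ± 15.1 CPM in VilCre and 201 ± 20.4 CPM in DKO, also without overlap, and did not pass (log2 0.33, SE 0.11, adjusted p = 0.177). The kinase Jak2, at 237 ± 21.0 CPM in VilCre and 180.3 ± 22.3 CPM in DKO, had no overlap either and did not pass (log2 -0.39, SE 0.13, adjusted p = 0.171). Ifng itself had 0 to 4 counts in the 6 libraries and was not tested.

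Of 6 endosomal processing genes, the cathepsins Ctss, Ctsl, Ctsb and Ctsd with Lgmn and Ifi30, 0 were called, and 5 had positive differences. None of the 3 ubiquitin ligases that remove class II molecules from the surface (March1, March8 and March9), none of 4 costimulatory ligands tested and none of the 3 companion genes tested (H2-DMb2, H2-Oa and H2-Ob) was called. The 3 companions had positive differences with wide errors, 3.73 for H2-DMb2 (log2, SE 1.53), 2.02 for H2-Ob (SE 0.98) and 1.53 for H2-Oa (SE 0.82), DKO library 1 being the highest. Without that library they were 1.02 (SE 0.74), 0.46 (SE 0.66) and 0.46 (SE 0.72), and none was called. H2-Ea was looked for by name and was not in the tables used here. At the thresholds used, 228 genes were called in all and 3017 had an unadjusted p under 0.05.

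The comparison of IECs with organoids set the tissue against its culture without other cells. All 7 were called higher in VilCre IECs than in VilCre organoids, where 28.1% of 16308 genes tested were called higher, and all 7 were called higher in DKO IECs than in DKO organoids, where the share was 29.8%. H2-Aa, H2-DMb1, Cd74 and Ciita were at or near 0 in VilCre organoids and passed the filter on low counts through the IECs, so their calls were fixed by the filter and the 7 of 7 is no result to set against these shares. With at least 10 counts required on average over the 6 IEC and over the 6 organoid libraries of both genotypes, H2-Ab1, H2-Eb1 and H2-DMa remained and all 3 were called, although H2-Eb1 had only 4 to 9 counts in VilCre organoids. The share of all genes called under that filter is not given here, so nothing is read from the number. The lowest IEC library exceeded the highest of all 51 organoid libraries in every one of the 7 genes, by 3684-fold in CPM for Cd74, 334-fold for H2-Aa, 128-fold for H2-Ab1, 112-fold for H2-DMb1, 89.2-fold for Ciita, 37.0-fold for H2-Eb1 and 6.37-fold for H2-DMa. IECs and organoids came in separate tables and differed in agent and in time since induction, so that these cannot be told apart from the setting.

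Most of the genes were at or near 0 in organoids, and ratios below are of pooled counts scaled by library size, with exact 95% intervals that cover counting error only. The floor was set at 3 counts per library. H2-Aa had 7968 to 16118 counts in the VilCre IEC libraries and 0 in all 3 VilCre organoid libraries, and was at least 6027-fold higher in IECs. Cd74 had 29101, 43485 and 50326 counts against 0, 0 and 4, a ratio of 44800 (interval 17497 to 164428). Ciita had 530, 824 and 1047 counts against 1, 0 and 0, a ratio of 3501 (628 to 138322). For the coactivator the interval is wide because a single read stands in the denominator.

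H2-DMb1 had 1286, 1894 and 2006 counts in VilCre IECs against 2, 3 and 2 in organoids, a ratio of 1080 (524 to 2688). H2-Eb1 had 4503, 7049 and 7638 counts against 6, 4 and 9, a ratio of 1473 (943 to 2446). H2-Ab1 had 9809, 14898 and 17226 counts against 42, 40 and 43, a ratio of 489 (410 to 588). With H2-Ab1 at about 40 counts and H2-Aa at 0, only the beta chain of I-A was detected in VilCre organoids. H2-DMa was the exception among the 7, with 1224, 1886 and 1859 counts in IECs and 136, 139 and 137 in organoids, a ratio of 17.6 (15.9 to 19.5) and a fitted log2 difference of 4.13 (SE 0.19, adjusted p = 6.54e-09).

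DKO samples gave smaller ratios for all 7 as measured. For H2-DMb1, Cd74 and Ciita the intervals overlapped those of VilCre and rest on 7, 4 and 1 pooled organoid counts in each genotype. For H2-Aa the VilCre value is only a bound. H2-DMa was 8.74-fold higher in DKO IECs than in DKO organoids (interval 7.87 to 9.72), H2-Eb1 199-fold (149.7 to 271), H2-Ab1 309-fold (240.5 to 404) and H2-Aa 595-fold (431 to 845). H2-DMb1 was 368-fold higher (178 to 917), and Ciita and Cd74 were 1145-fold (205 to 45261) and 20371-fold (7956 to 74769) higher.

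**Figure D3:**
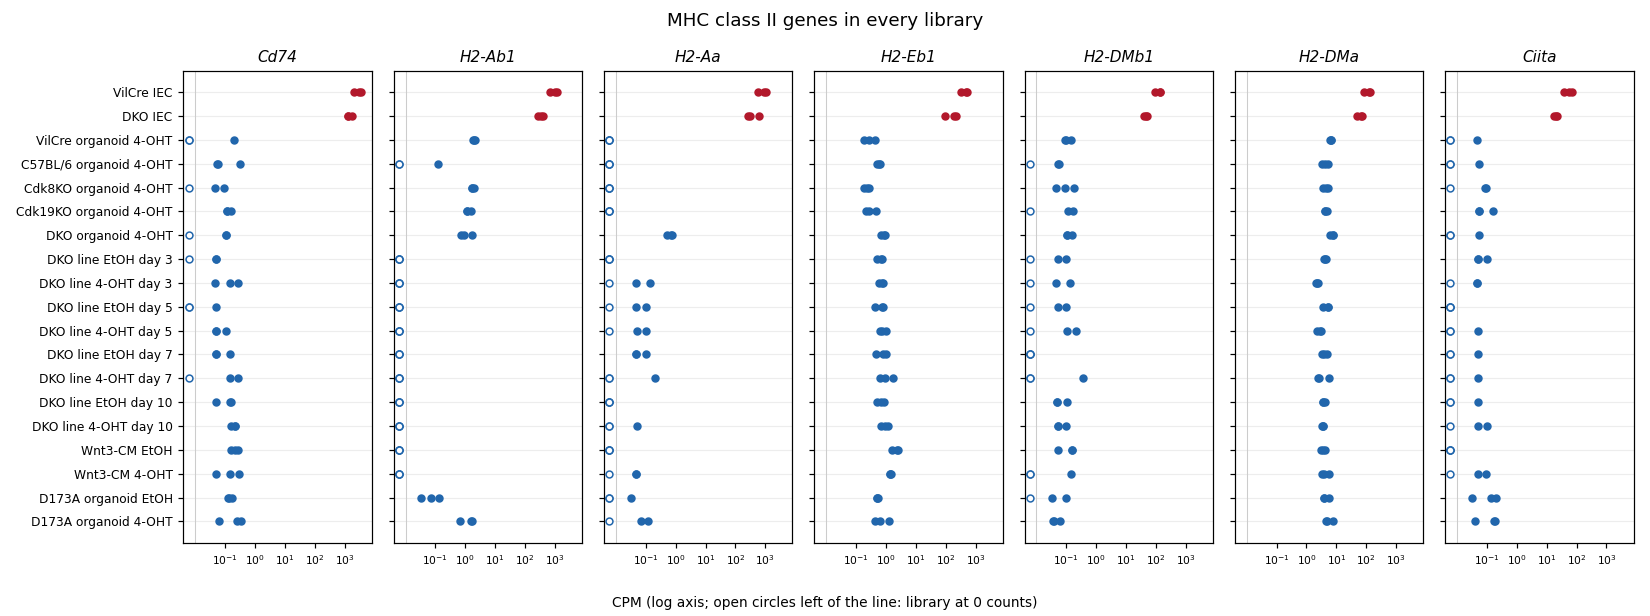
CPM of each MHC class II gene (x axes, log scale) in every library, with IEC libraries in red, organoid libraries in blue and libraries at 0 counts as open circles left of the line. IEC libraries lie above all organoid libraries for each gene, by 3684-fold for Cd74 and 6.37-fold for H2-DMa between the nearest libraries.

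Overlapping genes limit how the counts can be read. H2-DMa shares 3094 bases of its span with Brd2, a bromodomain gene on the opposite strand, and whether counting used strand was not given in the sources used here. Brd2 was at 212 CPM in VilCre IECs and 295 CPM in VilCre organoids (log2 -0.49, SE 0.07), which did not pass the fold cutoff. H2-Eb1 overlaps the antisense gene Gm20513 by 2204 bases, and Gm20513 had 0 to 2 counts in the VilCre and DKO organoid libraries, 1 to 5 in VilCre IECs and 50, 2 and 1 in DKO IEC libraries 1, 2 and 3. Ciita overlaps Dexi by 25888 bases.

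Among pathway genes in VilCre samples, the interferon gamma input was mostly higher in IECs, with 5 of 7 tested genes called higher and 1 lower. Socs1, a feedback inhibitor of the pathway, differed by 4.03 on the log2 scale (SE 0.40), Irf1 by 2.79 (SE 0.07) and the receptor chain Ifngr2 by 1.26 (SE 0.09). The receptor chain Ifngr1 was lower by a log2 difference of -0.67 (SE 0.10). The promoter-binding regulators were alike in number of calls up and down, with Rfxank higher (log2 0.97, SE 0.10), Creb1 lower (log2 -0.81, SE 0.08) and 5 of 7 not called. Their summed level was 210 to 224 CPM in VilCre IECs and 191 to 265 CPM over the 51 organoid libraries. The protease Ctss, which trims the invariant chain, was higher (log2 2.32, SE 0.16), as was Lgmn (log2 0.98, SE 0.24). The ligase March8 was higher (log2 1.23, SE 0.08) and March9 lower (log2 -1.48, SE 0.21). Of the costimulatory ligands 2 of 4 tested were called higher, Cd86 and Cd274 (the latter by log2 2.15, SE 0.40), and of the companions 2 of 3, H2-Oa and H2-Ob. Cd86, H2-Oa and H2-Ob had 0 counts in all 3 VilCre organoid libraries and entered the test through the IECs, so their calls were fixed by the filter. Epithelial markers were called higher in 5 of 6. Leukocyte markers were near 0 in the organoids and entered the test mostly through the IECs, so no number of calls is given for them. In the organoids their sums were 0.154 to 1.13 CPM for pan-leukocyte and 1.63 to 7.09 CPM for macrophage and dendritic markers, with 4 to 8 of the 9 at 0 in a library.

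Whether the DKO difference itself differed between IECs and organoids was tested in a joint fit of 12 libraries. The difference was called lower in IECs for 2 of the 7 genes, H2-Eb1 and H2-DMa, and 4.76% of all genes tested were called lower. H2-Eb1 had a log2 difference of -1.41 in IECs that did not pass and one of 1.49 in organoids that was called, and the difference of differences was -2.86 (log2, SE 0.82, adjusted p = 0.0460). For H2-DMa it was -1.00 (SE 0.26, adjusted p = 0.0268). H2-Ab1, lower in DKO in both settings, had -0.66 (SE 0.43, adjusted p = 0.349). H2-Aa, with 0 counts in VilCre organoids, had adjusted p = 0.0535, and H2-DMb1, Cd74 and Ciita, with 0 to 4 counts in these organoid libraries, had adjusted p of 0.209, 0.712 and 0.734. The call of 2 was 0 without VilCre IEC library 3, without DKO organoid library 1 or 2 or without any 1 of the VilCre organoid libraries, and 1 without DKO IEC library 2, VilCre IEC library 2 or DKO organoid library 3.

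Across all 51 organoid libraries H2-DMa and H2-Eb1 were counted in every one, H2-Ab1 in some lines, and the other 4 were mostly near the floor. H2-DMa ranged from 44 to 217 counts with a median of 78, and H2-Eb1 from 4 to 49 counts with a median of 15. H2-Aa had 3 counts or fewer in 47 libraries, Ciita in 47, H2-DMb1 in 48 and Cd74 in 37, and their highest counts were 14, 6, 7 and 10. H2-Ab1 was at 0 in 32 libraries and reached 51 in one.

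H2-Ab1 varied widely between organoid groups, some of which overlapped. It had 42, 40 and 43 counts in VilCre, 38, 38 and 41 in Cdk8KO, 20, 20 and 29 in Cdk19KO and 17, 30 and 14 in DKO organoids on day 7. C57BL/6 organoids had 2, 0 and 0. All 30 libraries of the second DKO line, over every day, agent and medium, had 0 counts. The DKO lines thus differed from each other at the same labelled genotype, with 14 to 30 counts in one and 0 in the other. H2-Aa was seen in a different set of libraries. It had 10, 14 and 13 counts in DKO organoids on day 7 and 0 in each of the 12 libraries of VilCre, C57BL/6, Cdk8KO and Cdk19KO organoids, at least 4.63-fold higher than VilCre. The second DKO line, at the same labelled genotype, had 0, 4 and 0 counts of H2-Aa after 4-OHT on day 7.

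On day 7, 3 of the 7 genes had enough counts to be tested, H2-Ab1, H2-Eb1 and H2-DMa. In DKO against VilCre organoids 2 of 3 were called, where 19.4% of 15125 genes were called. H2-Ab1 was lower (log2 -0.83, SE 0.27, adjusted p = 0.0113). H2-Eb1 was higher, with 13, 17 and 17 counts against 6, 4 and 9 (log2 1.49, SE 0.37, adjusted p = 0.00150). As counts, the beta chains H2-Ab1 and H2-Eb1 thus lay in opposite directions within one comparison, with H2-Eb1 low in VilCre. At 4 to 9 counts there, H2-Eb1 passed the filter on low counts through libraries with more counts, such as those of DKO. Nothing is therefore read from the 2 of 3 genes called against the share over all genes. H2-DMa had 142, 140 and 121 counts against 136, 139 and 137, and its log2 difference of 0.17 did not pass (SE 0.14, adjusted p = 0.318). Without DKO library 3 the number called was 1.

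Cdk8KO organoids were set against the same 3 VilCre libraries. None of the 3 genes was called by edgeR, where 7.23% of all genes were. H2-DMa had 118, 78 and 99 counts, all below VilCre, and its log2 difference of -0.56 passed the adjusted p (SE 0.14, adjusted p = 0.00401) but not the fold cutoff. It was called without Cdk8KO library 1. H2-Ab1 (log2 -0.18, SE 0.24) and H2-Eb1 (log2 -0.41, SE 0.47) did not pass.

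Cdk19KO organoids, which lack Cre, were compared with C57BL/6 organoids. One of 3 genes was called, where 5.25% of all genes were. H2-Ab1 had 69 counts over 3 libraries against 2, a ratio of 33.6 with a counting interval of 8.96 to 283 (edgeR's quasi-likelihood test, adjusted p = 1.32e-06). C57BL/6 organoids, with 2, 0 and 0 counts, were at the floor, so nothing is read from this call against the share over all genes. H2-Eb1 went the other way with 4, 5 and 9 counts against 11, 9 and 11, and did not pass (log2 -0.82, SE 0.41, adjusted p = 0.190). H2-DMa had 76, 76 and 91 against 57, 78 and 93 counts (log2 0.04, SE 0.16).

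**Figure D4:**
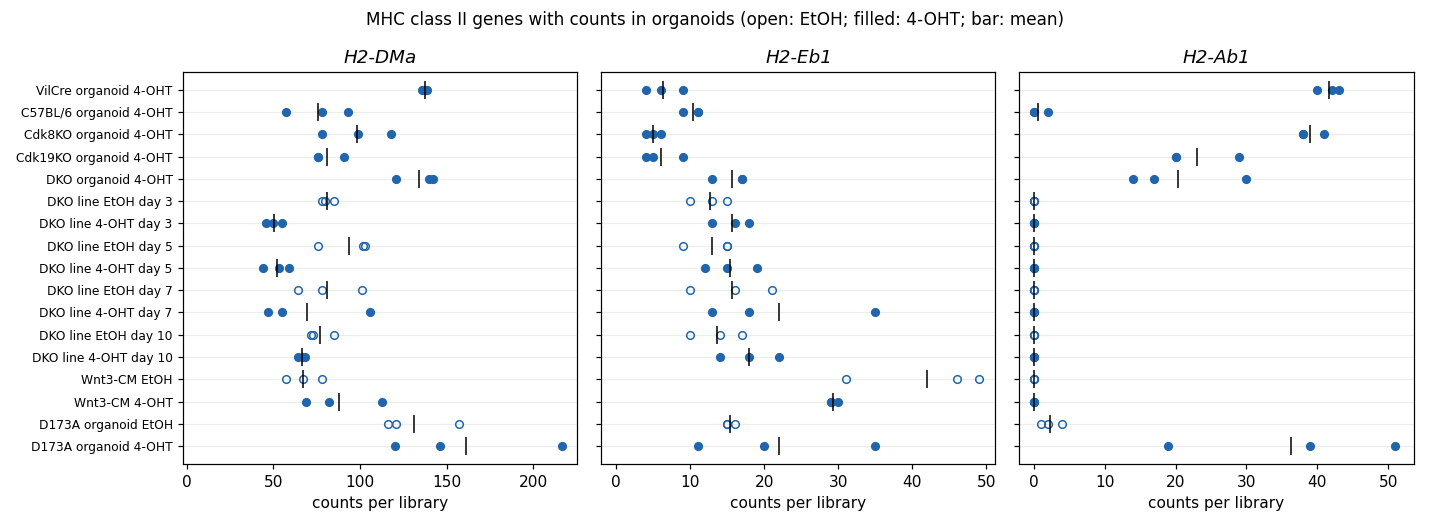
Counts per library (x axes, linear) of the 3 MHC class II genes measurable in organoids, by group, with open circles for EtOH, filled circles for 4-OHT and a bar at the mean. H2-Ab1 is at 38 to 43 counts in VilCre and Cdk8KO organoids, at 0 in every library of the second DKO line, and at 19 to 51 counts in D173A organoids after 4-OHT.

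In the second DKO line, EtOH and 4-OHT cultures were compared on each day, which sets deletion of Cdk8 against its presence on a Cdk19 ko/ko background. H2-DMa and H2-Eb1 could be tested. On day 3, H2-DMa had 80, 78 and 85 counts after EtOH and 46, 50 and 55 after 4-OHT, and on day 5 it had 102, 103 and 76 against 53, 59 and 44. The 4-OHT libraries were all lower on both days. It was called lower on day 3 (log2 -0.84, SE 0.23, adjusted p = 0.00532; 1 of 2 genes, with 12.4% of all genes called) and on day 5 (log2 -0.80, SE 0.23, adjusted p = 0.00591; 1 of 2 genes, with 13.2% of all genes called).

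By day 7, H2-DMa had 101, 78 and 64 counts after EtOH and 106, 55 and 47 after 4-OHT, and the groups overlapped. The log2 difference was -0.15 (SE 0.22, adjusted p = 0.623), and 0 of 2 genes were called by edgeR, where 18.3% of all genes were. Without 4-OHT library 1 H2-DMa was called lower. On day 10 it had 85, 73 and 72 against 68, 67 and 64 counts, a log2 difference of -0.13 (SE 0.23, adjusted p = 0.669), with 0 of 2 genes called and 15.8% of all genes. That the difference changed over the 4 days was tested as an interaction of agent and day and did not pass for H2-DMa (adjusted p = 0.0720) or H2-Eb1 (adjusted p = 0.888). The overlapping gene Brd2 had log2 differences of -0.13, -0.13, -0.25 and -0.17 on the 4 days.

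H2-Eb1 had 9 to 21 counts after EtOH and 12 to 35 after 4-OHT in the time course. Its log2 differences were positive on all 4 days, 0.15, 0.28, 0.55 and 0.47 in order of time, and none passed. Wnt3-CM supplies a ligand on which crypt cells depend, and the same line was grown in it. H2-Eb1 had its highest organoid counts there, with 49, 31 and 46 counts after EtOH and 30, 29 and 29 after 4-OHT. In this medium it was called lower after 4-OHT (log2 -0.62, SE 0.24, adjusted p = 0.0371; 1 of 2 genes, with 16.9% of all genes called), and the call was lost without any 1 of 5 of the 6 libraries, all but EtOH library 2. H2-DMa had 78, 57 and 67 against 113, 69 and 82 counts (log2 0.28, SE 0.20, adjusted p = 0.249).

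By the assignment of columns given above, H2-Ab1 in D173A organoids was counted mainly after 4-OHT. The gene had 2, 4 and 1 counts after EtOH and 19, 51 and 39 after 4-OHT, so the lowest 4-OHT library was above the highest EtOH library. It was the 1 of 3 genes tested that was called, where 12.3% of all genes were (ratio of pooled counts 16.4, interval 7.71 to 41.9, log2 3.97, SE 0.55, adjusted p = 0.000512 in edgeR's quasi-likelihood test). It passed the filter on low counts only through the 4-OHT libraries, so nothing is read from its call against that share. H2-Eb1 had 15, 15 and 16 counts against 35, 20 and 11 (log2 0.59, SE 0.38, adjusted p = 0.290), and H2-DMa had 157, 116 and 121 against 217, 146 and 120 (log2 0.37, SE 0.22, adjusted p = 0.249). Cd74 had 5, 4 and 4 against 10, 2 and 6 counts, and Ciita 4, 6 and 1 against 5, 6 and 1. H2-Aa had 0, 0 and 1 against 2, 0 and 3 counts, so the alpha chain stayed at the floor in the libraries where its beta chain was counted.

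The genes whose levels most resembled the mean of the 7 over all 57 libraries were Gzma (Pearson r 0.983), Lpar3 (0.982), Cd7 (0.982), Ptgdr (0.981), Cd8a (0.981), Gzmb (0.981), Ighg2b (0.981) and Sh2d2a (0.980). These correlations describe the step between 6 IEC and 51 organoid libraries, which all share. Several of the 8 are lymphocyte genes, such as the granzymes Gzma and Gzmb and the T cell coreceptor chain Cd8a, and Gzma was at 0 in the organoids on average. Within the 51 organoid libraries the genes most like H2-Eb1 were Slc39a4, a zinc transporter (r 0.812), Apol9a (0.806) and Ifi27 (0.799). Those most like H2-DMa were the intestinal alkaline phosphatase Akp3 (r 0.745), Marc2 (0.738) and the fructose transporter Slc2a5 (0.728). Libraries of one line and group share these values, so the coefficients are descriptions only.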

How the data were processed

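Paired-end 100-base poly(A) RNA-seq was used. The deposited files hold unnormalized counts for each gene. The submitters' processing notes name STAR 2.5.2, featureCounts, Subread 1.6.3 and mm10. In 4 tables, 57 of 63 samples were matched to columns, those of Wnt3-CM by group only and those of D173A organoids by elimination, since no label gives their line number. A further 6 columns that the labels do not explain were not used. From these counts, edgeR 4.0.16 in R 4.3.3 was run with its filter on low counts by group, TMM scaling and a robust quasi-likelihood fit, within a table or, for IECs against organoids, in a joint fit of 12 libraries. Log2 values for likeness used a prior count of 2, and similarity within organoids was taken for genes with a median of at least 10 counts. DESeq2 1.42.0 and limma 3.58.1 (voom) were alternatives. The 7 genes and the pathway and marker lists were chosen with earlier results of these data known, and the overlapping genes after their values were seen. Named genes were the 7, list genes called in the IEC comparison or between VilCre IECs and organoids (at most 5 a list), and the most similar genes. Irf1, Ifng, Ifngr1, Jak2, the companions, Igkc and Brd2 are also named for values that did not pass or lie outside this rule. The pipeline was tested on simulated data: for the IEC comparison 58.5% of genes changed by 1.5 on the log2 scale were recovered among 14910 genes, and 10% of the calls were false. Replicates differed beyond counting noise (chi-square per degree of freedom 2.41 to 71.1), so each was counted once. The labels do not state that IEC libraries came from separate mice. One list gene is not reported here.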

Additional observations from a re-analysis of the deposited data

Results flagged for a closer look

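Of the 7 genes, 2 differed between settings in how DKO compared with VilCre, by the test of the difference itself in the joint fit of 12 libraries. For H2-Eb1 the DKO difference in IECs minus that in organoids was -2.86 on the log2 scale (edgeR's quasi-likelihood test, adjusted p = 0.0460), and for H2-DMa it was -1.00 (adjusted p = 0.0268). Among all genes tested 4.76% were called lower and 9.11% in either direction. Some of the 7 genes passed the filter on low counts only through the IECs, so their number is not set against these shares. None of the 7 was called with limma-voom or without any 1 of the VilCre organoid libraries, and the number was 0 to 3 over all libraries left out in turn. The organoid side of H2-Eb1 rests on 4 to 17 counts per library. IEC and organoid libraries also differ in table, agent and time since induction, and each organoid genotype came from 1 line, and these cannot be told apart from the setting and the genotype.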

How the results depend on the processing

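Alternatives computed for single genes, in DKO against VilCre IECs and in VilCre IECs against organoids, had the same sign in 206 of 206 cases. This number was largely fixed in advance. Every IEC library lay above every organoid library in all 7 genes. In the IEC comparison the adjusted p alone reuses the main fit, and adding the DM beta genes leaves the counts of the other genes unchanged. In DKO against VilCre IECs, 3 of the 7 genes were called, 5 without the filter on low counts, 6 with DESeq2, 0 with a replicate block and 0 to 3 with 1 library left out. Over all genes the number called was 228, and it was 1103 without the filter, 859 with DESeq2, 8 with the replicate block and 3 to 1566 with 1 library left out. With DKO library 1 and VilCre library 2 both left out, an alternative added after the data were seen, the number was 3 of 7 (H2-Aa, H2-Ab1 and H2-DMb1). With the counts of both DM beta genes added, also chosen afterwards, it was 2, and 0 with DKO library 1 left out as well. For IECs against organoids in VilCre, a filter of at least 10 counts on average over the IEC libraries and over the organoid libraries of VilCre and DKO together left 3 of the 7 genes, all called. The interaction, 2 in the report, was 1 without the filter on low counts, 0 with limma-voom, 1 with the replicate block and 0 to 3 with 1 library left out. Leaving out 1 library gave 1 to 3 calls in DKO against VilCre organoids, 0 to 1 in Cdk8KO against VilCre organoids, 0 to 1 on day 7 and 0 to 1 in Wnt3-CM. Cdk8KO against VilCre organoids gave 1 call (H2-DMa) with the adjusted p alone, and day 7 gave 1 without the filter. In Wnt3-CM the 1 call became 0 with upper quartile normalization, with DESeq2 and with limma-voom. The cause was not tested.

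Replicate numbers did not pair the IEC libraries, while some organoid comparisons showed weak pairing. Same-numbered IEC libraries had correlations of deviations from their group means from -0.41 to 0.20, and 0 of 6 correlated best with their own number. In no comparison did all pairs exceed 0.1, but some came close. Same-numbered organoid libraries correlated from 0.017 to 0.23 on day 7 and from 0.095 to 0.35 on day 10. On these days 4 of 6 and 3 of 6 correlated best with their own number. The replicate block changed no other number of calls among the 7 genes by over 1.5 times. For Wnt3-CM and D173A organoids, whose columns carry a number that no label ties to a sample, a replicate block by column number, added after the data were seen, gave 1 call each as before; same-numbered libraries correlated from 0.095 to 0.22 and from 0.099 to 0.39, and 6 of 6 and 4 of 6 correlated best with their own number. Counts limit what organoids can show: 4 of the 7 genes could not be tested on day 7, and 5 of 7 could not in the time course.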
